A study of Mus musculus with 2 samples.

Results

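The 10 imprinted genes described here, Igf2, H19, Dlk1, Meg3, Cdkn1c, Ndn, Plagl1, Peg3, Grb10 and Mest, have each been linked to growth control or to the quiescence of stem cells. They were followed through every non-control probe on the arrays whose transcript identifier belongs to one of them, whatever the probe's signal. This gave 19 probes on 28 spots for the 10 genes, out of 21360 genes that could be named on the arrays. Of the 10 genes, 5 had 1 probe and 5 had several. The cells were LSK cells, the lineage-negative, Sca-1-positive and c-kit-positive fraction of bone marrow in which hematopoietic stem cells and the first progenitors are found. They came from C57BL/6J mice, and 1 array was made for nondiabetic mice and 1 array for mice made diabetic with streptozotocin (STZ-DM), a toxin of the insulin-producing beta cell. According to the labels each array stands for 3 female mice, although the study's text describes male mice, and amplification started from 8.3 ng of total RNA. Age, time since STZ and the treatment of the nondiabetic mice are not given in the labels of the arrays. With 1 array per condition no difference below has a replicate check, and none was tested.

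An imprinted gene is transcribed from 1 parental allele only, with the choice set by DNA methylation laid down in the germ line. Many such genes lie in domains that share a control region. Paternally expressed genes such as Igf2, Dlk1, Peg3, Ndn, Plagl1 and Mest and maternally expressed genes such as H19, Meg3, Cdkn1c and, in most tissues, Grb10 often act in opposite directions on growth. Long-term hematopoietic stem cells are known for high expression of several of these genes, among them Cdkn1c, and mouse stem cells that lose the H19 control region on the maternal allele or lose Cdkn1c leave quiescence. The arrays measure the sum of both alleles, so imprinting itself was not measured.

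Sequence upstream of 3 of these genes is shown because CG dinucleotides are sites of DNA methylation, the mark by which imprints are kept. The stretches shown lie before transcription starts and were not matched to the control regions of imprinting. Methylation was not measured. In the RefSeq table of build GRCm38.p6, 8 of the 10 genes had 15 transcription starts. The 250 bases before a start were read on the gene's strand, 5′ to 3′, and each CG, which reads the same on both strands, is in capitals. The sequences are those of Dlk1 (chr12:109452573-109452822, + strand), whose signal differed most upwards, of the Igf2 start with the most CG (chr7:142658805-142659054, - strand), whose gene was lower in diabetic mice, and of Plagl1 (chr10:13090582-13090831, + strand), whose brightest probe differed little.
Dlk1: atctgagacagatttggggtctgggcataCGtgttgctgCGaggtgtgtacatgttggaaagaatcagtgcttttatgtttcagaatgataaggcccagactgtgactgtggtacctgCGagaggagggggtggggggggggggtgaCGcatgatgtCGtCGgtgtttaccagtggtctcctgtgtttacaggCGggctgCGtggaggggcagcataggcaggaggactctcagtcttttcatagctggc
Igf2: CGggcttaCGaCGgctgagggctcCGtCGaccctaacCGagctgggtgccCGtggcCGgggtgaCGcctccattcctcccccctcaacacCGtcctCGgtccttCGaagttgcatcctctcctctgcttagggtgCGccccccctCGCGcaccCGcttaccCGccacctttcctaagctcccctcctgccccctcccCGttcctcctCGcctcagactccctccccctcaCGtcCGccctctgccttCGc
Plagl1: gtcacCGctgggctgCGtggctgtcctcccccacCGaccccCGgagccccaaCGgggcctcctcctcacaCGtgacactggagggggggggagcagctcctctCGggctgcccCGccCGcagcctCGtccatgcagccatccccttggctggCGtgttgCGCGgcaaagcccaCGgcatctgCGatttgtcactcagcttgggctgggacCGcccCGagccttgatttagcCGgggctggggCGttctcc
The Dlk1 window held 8 CG, the Igf2 window 22 and the Plagl1 window 19. Over the 32851 starts of the table the median was 6, and windows with at least as many CG made up 43.0%, 14.8% and 19.7% of the table. The highest count among the 10 genes was 40 CG, at 1 of the 2 starts of Grb10, reached by 1.31% of all starts, while the other Grb10 start had 8. The other Igf2 starts had 1, 6 and 10 CG, Meg3 had 10 and 0 at its starts, Mest 14, 14 and 7, Peg3 8 and Ndn 5. The genes were thus not alike in this feature, and the arrays do not tell which start was used.

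Of the 10 genes, 6 were well above background on both arrays by their brightest probe, 2 on the nondiabetic array only and 2 on neither. Intensities are given as deposited, before scaling. Log2 ratios of diabetic over nondiabetic are given after each array was scaled to its 75th percentile. A 2-fold limit was used to describe size. By this limit Dlk1 was higher in diabetic LSK cells, Igf2 and Cdkn1c were lower, and Meg3, Ndn, Plagl1, Grb10 and Mest, with log2 ratios between -0.36 and 0.26, differed by less. H19 and Peg3 had no ratio. For the 8 genes that had a ratio or a bound, the median log2 value was -0.10, and over all 15192 such genes it was 0.02. Here 1 of 8 genes was past 2-fold upwards in diabetic mice, against 11.0% of all genes, and 2 of 8 were past 2-fold downwards, against 10.1%. The share that was higher is thus near that of all genes. Of the 6 genes measured on both arrays, 1 was past 2-fold upwards and 0 downwards, against 9.44% and 8.44% of all genes so measured. Of all named genes, 28.8% were well above background on neither array, against 2 of 10 here. A loss of detection from the nondiabetic to the diabetic array was seen in 5.28% of genes well above background on the former, against 2 of 8 here, and a gain was seen in 6.91% of genes well above background on the diabetic array, against 0 of 6 here. These shares describe 2 arrays, and the genes were chosen with results of these arrays known.

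**Figure D1:**
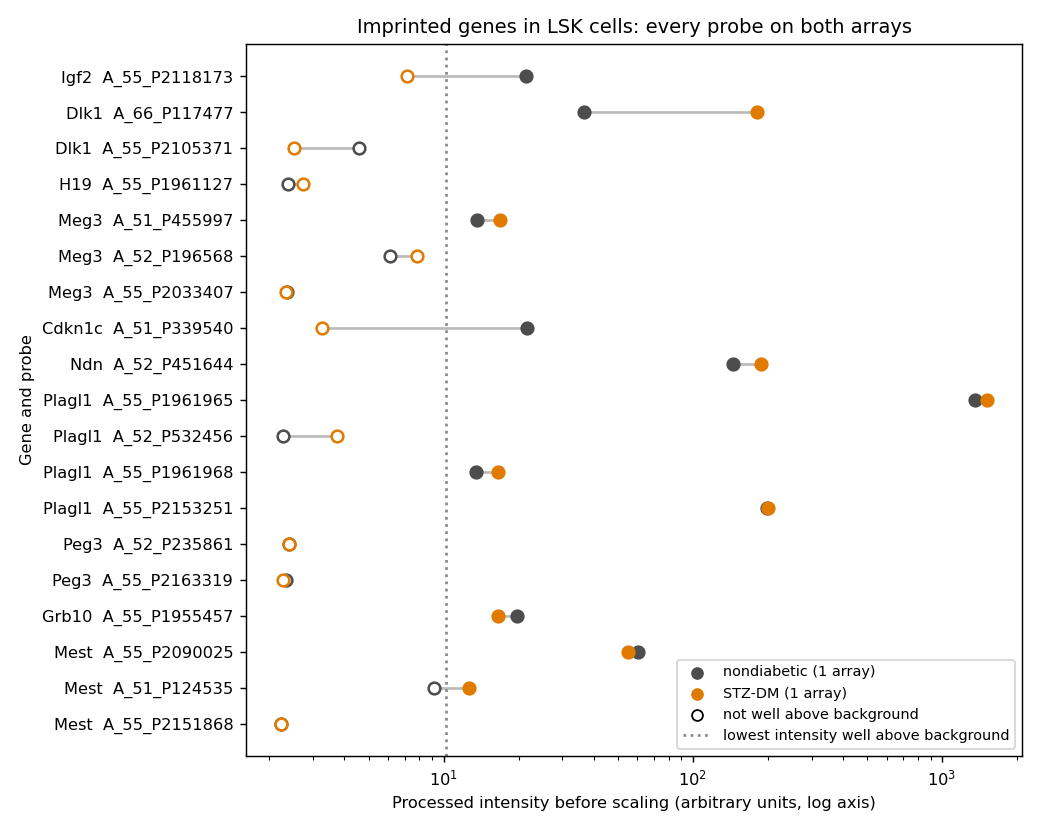
Processed intensity (log axis, arbitrary units) of all 19 probes of the 10 genes on the nondiabetic array and the STZ-DM array, with open circles for signals not well above background and a dotted line at 10.2, the higher of the arrays' lowest intensities well above background. Dlk1 moved from 36.5 to 181 on 1 probe, Igf2 and Cdkn1c crossed the line downwards, and 8 probes lay on the background side on both arrays. Intensities of different probes are not comparable with each other.

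The precision of single values is limited by the number of arrays. The only repeated measurement within an array comes from probes printed several times. For such probes, split by brightness into 3 classes, the median SD between spots was 0.25 on the log2 ratio for dim probes, 0.13 for probes of middle brightness and 0.07 for bright probes. It is an error of spots only, and the spread between mice, sorts or amplifications is not in it. Among the 308 negative control spots the median intensity was 2.35 on the nondiabetic and 2.32 on the diabetic array. On the nondiabetic array all but 1 of them were at or below 10.7, and the exception had 466. On the diabetic array the highest was 6.84. Of the markers of the sort, Kit, which encodes c-kit, had 4635 and 4735, Ly6a, which encodes Sca-1, 475 and 701, and Cd34 and Flt3 were also well above background on both arrays. Several lineage markers were well above background on both arrays too, although the sort was lineage-negative. Itgam, a myeloid integrin, had 34686 and 35189, Csf1r 5003 and 4284, Cd4 971 and 1019 and Cd3e 238 and 198. Of 12 markers of stroma and endothelium, 5 were well above background on each array, with summed intensities of 432 and 357. Col1a1, Col3a1, Pdgfra, Cdh5, Lum and Adipoq were not well above background on either. Col1a2 had 85.2 and 43.9, Pdgfrb 250 and 220, Kitl 23.3 and 16.7 and Bglap 23.6 and 25.4. Cxcl12 was well above background on the nondiabetic array only and Lepr on the diabetic array only. The summed intensities of 8 erythroid markers were 3423 and 7770. Of the 7 with a ratio, Slc4a1, Hba-a1 and Hbb-b1 were past 2-fold upwards in diabetic mice, against 11.0% of all genes. Hbb-bt and Alas2 had log2 ratios of 0.75 and 0.35, and Klf1 and Epor had -0.30 and -0.20. The sums were 44376 and 43166 for 9 granulocyte and monocyte markers, 1161 and 1569 for 5 megakaryocyte markers, 213 and 299 for 5 B cell markers and 4536 and 3810 for 5 T and NK cell markers. Intensities of different probes are not comparable, so no level of a cell type can be read from these sums. Itgam made up most of the granulocyte and monocyte sums, and Nkg7, with 3291 and 2583, most of the T and NK cell sums. Past 2-fold in these lists were Gp9 at 1.52 and Cd79a at 1.51, and in the other direction S100a8 at -1.48 and Cd3g with a bound of -1.45. The part of other cells in the values below was not tested, and fewer cells of a type cannot be told apart from less RNA per cell.

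Dlk1 encodes a transmembrane protein with EGF-like repeats, related to Notch ligands and first known as preadipocyte factor 1, which marks fetal and stromal progenitors. Its brightest probe (A_66_P117477) gave 36.5 in LSK cells of nondiabetic mice and 181 in those of diabetic mice. This is a log2 ratio of 2.19, or 4.56-fold higher after scaling, and both signals were well above background. The scanner software attached errors of 4.40 and 18.2 to these intensities, and before background subtraction the spot had a median pixel of 77 and 217 over a local background of 29 and 30. The difference was larger than the spot SD of 0.13 for probes of this brightness. Among genes measured on both arrays, 1.89% were at least 4-fold higher in diabetic mice.

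The other Dlk1 probe (A_55_P2105371), which carries the same transcript identifier, gave 4.56 and 2.51 and was well above background on neither array, so that it has no ratio. In all, 315 genes had a brightest probe measured on both arrays and at least 2-fold higher in diabetic mice, and a further probe for the same transcript. In 77 of them (24.4%) the further probe was also at least 2-fold higher, and in 51 (16.2%) it was well above background on neither array, as for Dlk1.

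Meg3, the maternally expressed long noncoding RNA of the Dlk1 domain, has been linked to the maintenance of long-term stem cells. Its brightest probe (A_51_P455997) gave 13.6 for nondiabetic and 16.9 for diabetic mice. The log2 ratio of 0.19 is smaller than the spot SD of 0.25 for dim probes. The other Meg3 probes were not well above background on either array. One, A_52_P196568, had 6.07 and 7.79, and the other, A_55_P2033407, had 2.36 and 2.32. Meg3 was thus close to the detection limit on both arrays. The further genes of this domain lay near Meg3. Dio3, the deiodinase that inactivates thyroid hormone, had 194 and 247, a log2 ratio of 0.24, and Mirg, a noncoding RNA that hosts microRNAs, had 123 and 132, a log2 ratio of -0.01. Rtl1, a retrotransposon-derived gene, was not well above background, with 2.82 and 5.66. The difference on the Dlk1 probe was not seen on any other measured gene of the domain.

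Igf2 encodes insulin-like growth factor 2, a fetal growth factor that signals through the type 1 IGF receptor and the insulin receptor. Its only probe (A_55_P2118173) had 21.4 in nondiabetic mice, well above background, and 7.13 in diabetic mice, not well above background. By processed intensity after scaling, the diabetic value was therefore at least 2.31-fold lower. This bound was taken against the lowest intensity well above background on the diabetic array, 10.1, and leaves out the error of the nondiabetic value. The errors of the software were 3.30 and 2.65, and the median pixel was 60.5 over a local background of 32 and 45 over 24. Less the local background, the pixel values differed by less than the bound. The nondiabetic value itself lies near the lowest signals well above background, and with normexp background correction, which adds an offset of 50 to each intensity, the log2 ratio was -0.30 and no longer past 2-fold.

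H19, the maternally expressed noncoding RNA next to Igf2 and the host of a microRNA that limits growth, was not detected. Its only probe (A_55_P1961127) had 2.36 and 2.73, well above background on neither array. The nondiabetic value was near the negative control median of 2.35. The diabetic value was above the median of 2.32 but below the highest negative control, 6.84. No ratio can be given, and a difference in H19 was not detectable by this probe.

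The receptors and binding proteins of the IGF pathway were read beside Igf2. On the arrays were 16 genes of this axis, 12 of them with a ratio or bound and a median of 0.25 on the log2 scale. Of the 12, 2 exceeded 2-fold upwards, 1 exceeded it downwards and 9 lay in between. Over all genes the shares were 11.0% and 10.1%. Under normexp the counts were 0 and 0, with Igfbp5 at 0.44, Igfbp7 at 0.85 and Igf2bp2 at -0.63, and under quantile normalization, median centring and loess 3 were past 2-fold upwards. The type 2 receptor Igf2r, itself imprinted and known to clear Igf2 from the cell surface, had a log2 ratio of 0.27. Igf1r, the type 1 IGF receptor, had 426 and 656, a log2 ratio of 0.51. Irs2, an adaptor of the type 1 IGF receptor and the insulin receptor, had 730 and 933. Insr, the insulin receptor, had 434 and 338, a log2 ratio of -0.48. Among binding proteins, Igfbp7 had 101 and 242, a log2 ratio of 1.15. Igfbp5 was not well above background in nondiabetic mice, with 2.53, and had 33.3 in diabetic mice, at least 3.01-fold higher. Igf2bp2, an RNA-binding protein of Igf2 transcripts, had 39.4 and 5.84 on its brightest probe, at least 4.25-fold lower, but its other probe had 13.6 and 16.2, a log2 ratio of 0.14. The list therefore held values on both sides, with Igf2 and the brightest Igf2bp2 probe lower and the receptor genes Igf1r and Igf2r slightly higher.

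Cdkn1c encodes p57Kip2, an inhibitor of cyclin-dependent kinases that holds hematopoietic stem cells in quiescence. Its only probe (A_51_P339540) had 21.7 in nondiabetic mice, well above background, and 3.26 in diabetic mice, within the range of the negative controls. By processed intensity after scaling, the diabetic value was therefore at least 2.34-fold lower, a bound that leaves out the error of the nondiabetic value. The software errors were 3.25 and 2.43, and the median pixel was 59 over a local background of 31 and 45 over 29. Less the local background, the pixel values here too differed by less than the bound. Under normexp the log2 ratio was -0.40, short of 2-fold. As for Igf2, 1 spot near the detection limit on each array carries this value.

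The related inhibitors did not share the direction of Cdkn1c. Cdkn1b, which encodes p27Kip1, had 402 and 889, a log2 ratio of 1.03. Cdkn1a, which encodes p21, had 7.50 in nondiabetic mice, not well above background, and 15.9 in diabetic mice, at least 1.44-fold higher. Of the 18 genes listed for G1 control, 15 had a ratio or bound, with a median of -0.02. Of these, 3 exceeded 2-fold upwards and 3 downwards, against 11.0% and 10.1% of all genes. Under normexp the counts were 1 and 0, and only Ccne1 stayed past 2-fold. Cdkn1b was also short of 2-fold under quantile normalization and loess, and Cdkn2c under median centring. The higher genes were Cdkn1b, the retinoblastoma relative Rbl2, with 64.8 and 184, and cyclin E1, Ccne1, with 39.1 and 154 on its brightest probe and 57.7 and 79.6 on the other. The lower genes were cyclin D1, Ccnd1, with 144 and 54.0, Cdk2, with 671 and 328, and the INK4 inhibitor Cdkn2c, with 956 and 511. Cdk4 was nearly the same, with 1973 and 2109, as was the INK4 inhibitor Cdkn2d, with 2268 and 2131. Among the other D cyclins, Ccnd2 had 1603 and 1324 and Ccnd3 had 799 and 992. Inhibitors and activators of the cell cycle thus stood on both sides.

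**Figure D2:**
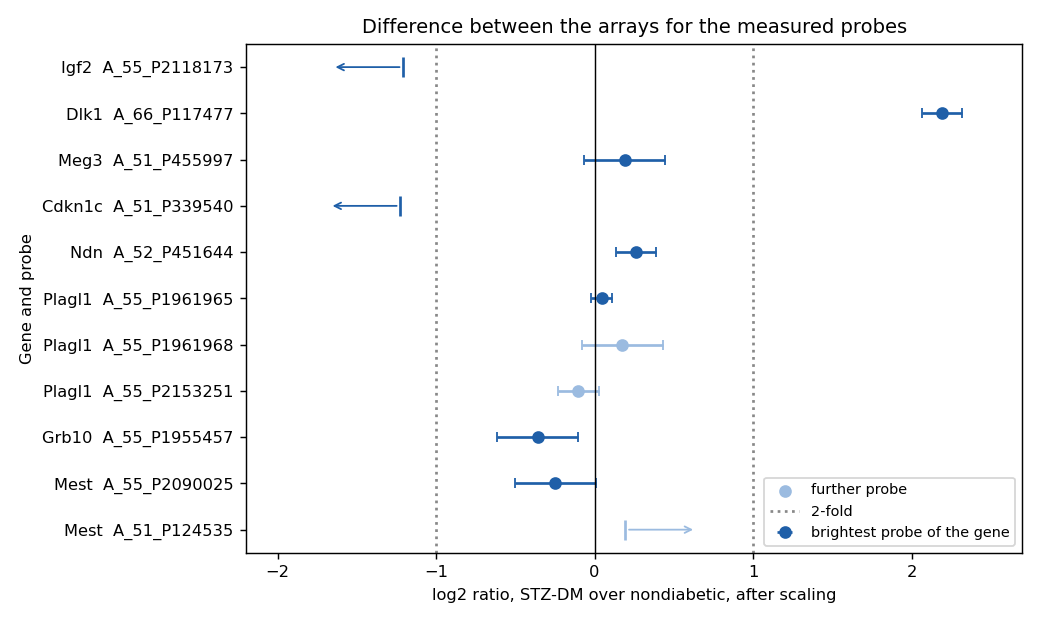
Log2 ratio of diabetic over nondiabetic after scaling, for the 11 probes of these genes that have a ratio or a bound. Points carry the median spot SD of probes of like brightness as error bars, and a bar with an arrow is a bound. Dlk1 stands at 2.19, Igf2 and Cdkn1c have bounds of -1.21 and -1.23, and every other probe lies between the dotted 2-fold lines.

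Ndn, Plagl1 and Peg3 encode nuclear proteins that restrain growth. Ndn encodes necdin, a MAGE family protein that binds p53 and E2F1 and is known to keep hematopoietic stem cells quiescent. Its only probe (A_52_P451644) had 145 in nondiabetic and 188 in diabetic mice, both well above background. The log2 ratio of 0.26, or 1.20-fold, was larger than the spot SD of 0.13 for probes of this brightness and far from 2-fold. The software errors of the Ndn intensities were 14.7 and 18.9. Plagl1 encodes Zac1, a zinc finger transcription factor that activates other imprinted genes. It was the best measured of the 10 genes, with 4 probes for 1 transcript. Its brightest probe (A_55_P1961965) had 1357 and 1518, a log2 ratio of 0.04, within the spot SD of 0.07. The second (A_55_P2153251) had 198 and 199.9, a log2 ratio of -0.10, and the third (A_55_P1961968) had 13.5 and 16.5, a log2 ratio of 0.17. All of them differed by no more than about the spot SD of their brightness. The fourth (A_52_P532456) was not well above background, with 2.27 and 3.74. For this gene the 3 measured probes lay close to each other.

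Peg3, a zinc finger protein of the apoptosis pathway known to mark stem cells in several adult tissues, was not detected. Its probes had 2.39 and 2.40 (A_52_P235861) and 2.34 and 2.27 (A_55_P2163319), next to the negative control medians. The other genes of its domain on the arrays, Usp29 and Zim1, were also not well above background.

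Grb10 encodes an adaptor that binds the insulin and IGF receptors and dampens their signal, and it also binds Kit. Its only probe (A_55_P1955457) had 19.6 in nondiabetic and 16.6 in diabetic mice. The log2 ratio of -0.36 was within 2-fold. It was larger than the median spot SD of 0.25 for dim probes, but the highest SD among these was 0.62. The software errors were 3.18 and 2.97, and the median pixel was 58 over a local background of 33 and 54.5 over 28. Less the local background, the pixel values were nearly alike. Both intensities were well above background but low.

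Mest encodes an alpha/beta hydrolase that is known as a marker of adipose expansion. It had 3 probes. The brightest (A_55_P2090025) had 60.2 and 55.0, a log2 ratio of -0.25, similar to the spot SD of 0.25. Another probe for the same transcript (A_55_P2151868) had 2.23 on both arrays and was not detected. The third (A_51_P124535), for a different transcript, was printed on 10 spots, which makes it the only probe of these genes with repeated spots. On the nondiabetic array its spots ranged from 4.25 to 12.7 with a median of 9.0, and on the diabetic array from 8.58 to 18.3 with a median of 12.7. The ranges overlapped, 8 of 10 spots were brighter on the diabetic array, and 1 spot was well above background on the nondiabetic array against 7 on the diabetic array. The software marked 4 spots as outliers on the nondiabetic array. Over the other 6 the log2 ratio was 0.35 ± 0.41 (SD between spots, n = 6 spots of 1 array pair), and 5 of 6 were higher. Because the nondiabetic signal was not well above background, only a bound of at least 1.14-fold higher can be given. The Mest probes with a ratio or bound thus lay on opposite sides of 0. The SD of 0.41 describes single spots and is not the error of the mean over 6.

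**Figure D3:**
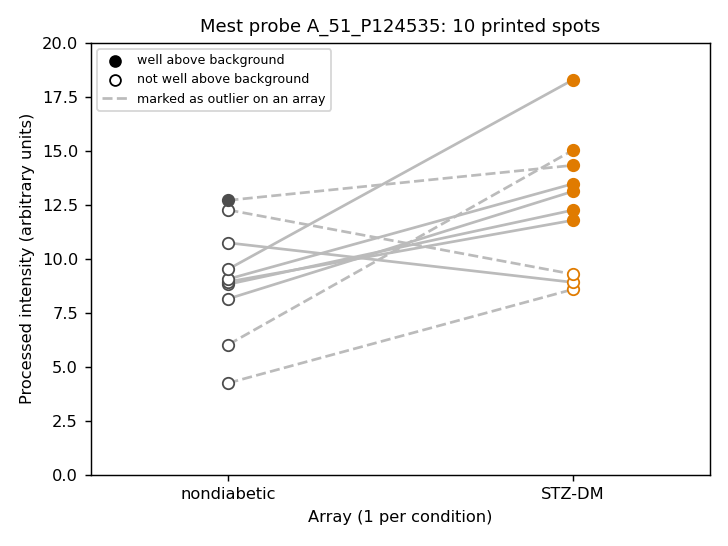
Processed intensity of the 10 spots of the Mest probe A_51_P124535 on each array, with each spot joined by a line, open circles for spots not well above background and broken lines for the 4 spots marked as outliers. The spots lie between 4.25 and 12.7 on the nondiabetic array and between 8.58 and 18.3 on the STZ-DM array, so that the ranges overlap.

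The other imprinted genes were read to see whether the 10 stood apart. Of 54 listed, 49 were on the arrays, and 37 had a ratio or bound, with a median of 0.02, the same as over all genes. Past 2-fold were 5 genes upwards and 3 downwards, against 11.0% and 10.1% of all genes, and 29 lay in between. Among the genes listed as maternally expressed, 2 of 20 were at least 2-fold higher and 1 lower. Among those listed as paternally expressed, Gnas included, 3 of 17 were higher and 2 lower. Under normexp these counts were 0 and 0 for the maternally expressed and 2 and 2 for the paternally expressed genes. The sides were not tested against each other.

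In the domains that hold Igf2 and Cdkn1c, most maternally expressed neighbours had ratios above 0. Phlda2, which restrains placental growth, had 34.2 and 87.7, a log2 ratio of 1.24, and Slc22a18, a transporter, had 64.3 and 168, a log2 ratio of 1.27. Kcnq1ot1, the paternal noncoding RNA that silences this domain, had 303 and 233, a log2 ratio of -0.50. Tspan32 had a log2 ratio of 0.65, Ascl2 0.29, Cd81 0.26 and Tssc4 0.18, while Nap1l4 and Osbpl5 had -0.51 and -0.70. Under normexp Phlda2 and Slc22a18 were at 0.52 and 0.82, short of 2-fold. Of 9 measured neighbours of Igf2 and Cdkn1c, 2 were past 2-fold upwards and 0 downwards, against 11.0% and 10.1% of all genes. With 9 genes no contrast with Igf2 and Cdkn1c can be read from these counts. Kcnq1ot1, Nap1l4 and Osbpl5 were lower, short of 2-fold. In the domain of Ndn, the ubiquitin ligase gene Mkrn3 had 212 and 14.3 on its brightest probe, a log2 ratio of -4.01. Its other probe had 2.50 and 13.6 and stood on the other side, while Ube3a had 740 and 659, a log2 ratio of -0.29. The Mest neighbour Copg2, a coat protein of transport vesicles, had 109 and 111, a log2 ratio of -0.09.

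Elsewhere, Sgce, which encodes a sarcoglycan, had 99.5 and 268, a log2 ratio of 1.31. Nnat, which encodes neuronatin, had 178 and 51.9 on its brightest probe and 47.3 and 17.5 on the other, log2 ratios of -1.89 and -1.55, so that here both probes stood on 1 side. Sfmbt2, a Polycomb family gene, had 2.45 and 105, at least 9.52-fold higher, on a probe that its other probes did not share, since these were well above background on neither array. Htr2a, a serotonin receptor, had 77.1 and 31.2, and Inpp5f, a phosphatase, had 4.32, not well above background, and 25.8. Under normexp Sgce, Htr2a and Inpp5f were short of 2-fold, with 0.92, -0.59 and 0.25. Among the 4 brightest genes listed as paternally expressed and short of 2-fold, Gnas had a log2 ratio of -0.20, Airn -0.23, Mcts2 0.45 and Kcnq1ot1 -0.50. Which of the Gnas transcripts its probe reads was not analysed. Among the 4 brightest maternally expressed ones, Blcap had -0.13, Cd81 0.26, Igf2r 0.27 and Ube3a -0.29.

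**Figure D4:**
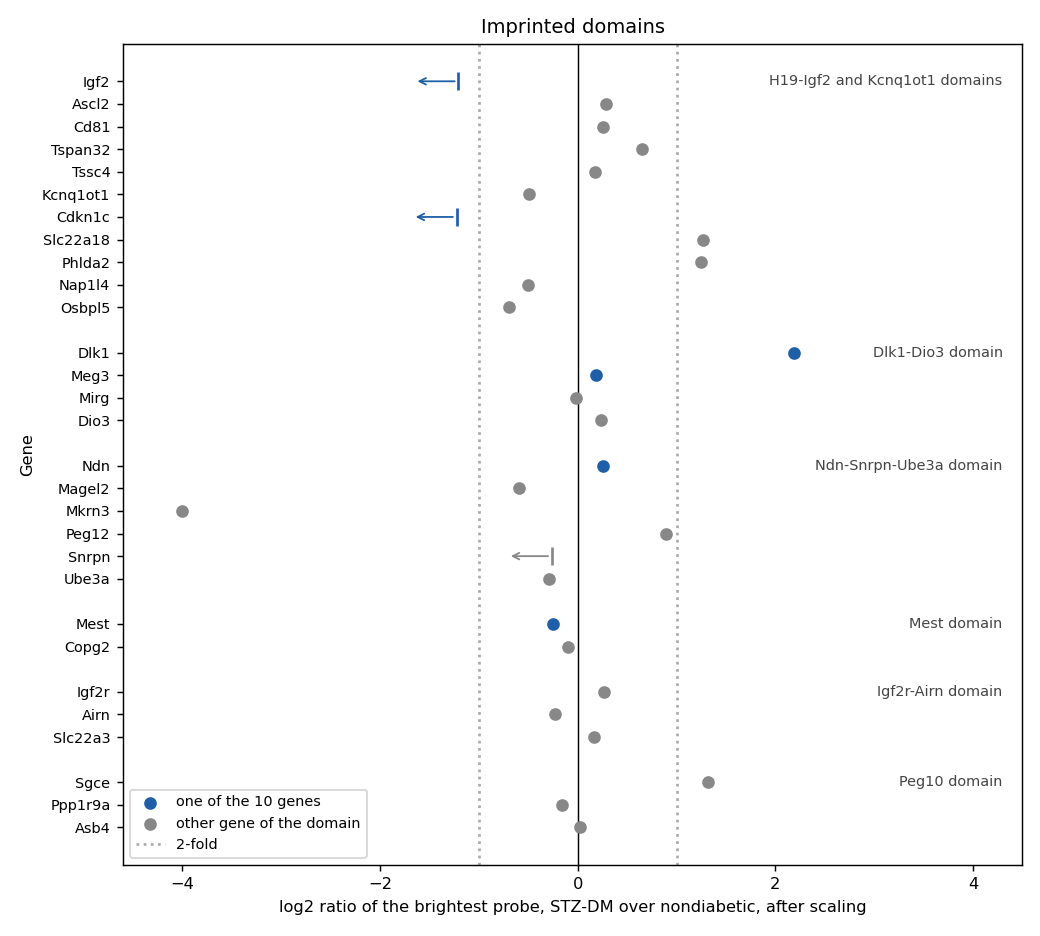
Log2 ratio of diabetic over nondiabetic, by brightest probe, for the genes of 6 imprinted domains that have a ratio or bound, with the genes described here in blue, their neighbours in grey, bounds as bars with arrows and dotted lines at 2-fold. Within most domains the values scatter on both sides of 0. Cdkn1c has a bound of -1.23. Of its neighbours, Phlda2 and Slc22a18 stand at 1.24 and 1.27, and Kcnq1ot1, Nap1l4 and Osbpl5 at -0.50, -0.51 and -0.70. The other measured neighbours lie between 0.18 and 0.65, and no contrast with Cdkn1c can be read from them. Dlk1 stands at 2.19 on its brightest probe, the other having no ratio, and Meg3 at 0.19.

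Values of 8 genes, all but H19 and Peg3, were then computed under 10 other settings of background correction, scaling, filtering and probe choice, of which 9 give a value for Igf2 and Cdkn1c. Dlk1 stayed past 2-fold under each, between 1.14 and 2.21 on the log2 scale. Settings of filtering, floor and outlier spots cannot change a probe with a single spot measured on both arrays, and left Dlk1 at 2.19. The mean over probes did so too, because it leaves out the undetected other Dlk1 probe. Igf2 ranged from -1.70 to -0.30 and Cdkn1c from -2.85 to -0.40, so that the size of these differences rests on how signals near background are treated. Ndn stayed between 0.18 and 0.28 and Plagl1 between 0.02 and 0.09.

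**Figure D5:**
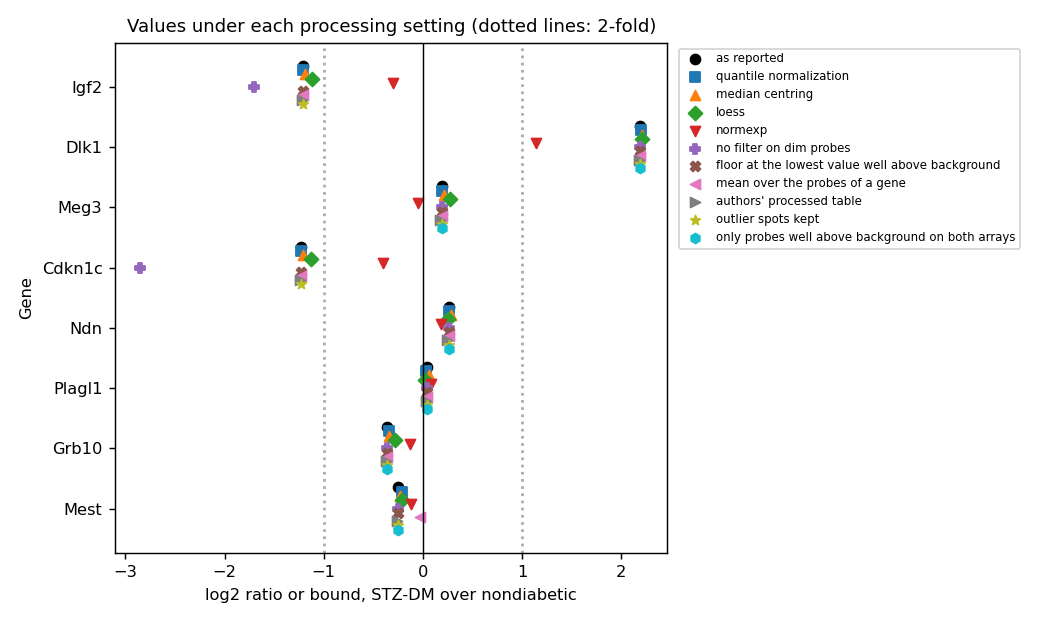
Log2 ratio or bound of diabetic over nondiabetic for the 8 genes that have one, as reported (black) and under 10 other settings of the processing, or 9 for Igf2 and Cdkn1c (coloured markers), with dotted lines at 2-fold. Dlk1 stays to the right of 2-fold throughout, Igf2 and Cdkn1c spread from far left of 2-fold to inside it, and Ndn and Plagl1 hardly move.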

How the data were processed

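Per the labels, RNA of LSK cells was amplified as cDNA, labelled with Cy3 and hybridised to 1-colour Agilent arrays, 1 per condition. Per the file headers both were on 1 slide and in 1 scan. For each array the authors deposited the scanner table of Feature Extraction 11.5.1.1 (Agilent), with processed intensities corrected for background within the array (grid build mm9), and a table of processed intensities, each column of which was the scanner value times 1 constant. Each intensity was divided by the 75th percentile of its array (168 and 182, from 59305 non-control spots) and log2-transformed. Outlier spots of either array were dropped before spots of a probe were averaged, and a probe counted as well above background if the software marked over 50% of its spots so. Transcript identifiers were matched to a RefSeq table of GRCm38.p6, which named 53.7% of spots. Probe positions within transcripts were not analysed here. The brightest probe stood for a gene. For a bound, the dim side was set to its own value or to the array's lowest signal well above background (10.2 and 10.1), whichever was higher. A bound takes processed intensities as they stand and leaves out their errors. Named genes were the 10 genes with every probe and, per pathway or marker list, all genes past 2-fold and, for the pathway lists, up to 4 of the brightest others; Cdkn1a, Ctcf, Dnmt3l, neighbours in the domains and the other named cell type markers were added after values were seen. The genes, lists and domains were chosen with earlier results of these data known. The steps were tested on simulated data. Python 3.11.15, numpy 2.4.6, pandas 2.3.3, R 4.3.3 and limma 3.58.1 were used. The alternatives were 9 planned settings and 1 that kept outlier spots, added after seeing the data.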

Additional observations from a re-analysis of the deposited data

How the results depend on the processing

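Dlk1 stayed past 2-fold in all 10 alternatives, with log2 ratios from 1.14 under normexp to 2.21 under median centring. The settings of filtering, floor, mean over probes and outlier spots could not change its value and left it at 2.19. Only the settings of background correction and scaling were a check on Dlk1. The number of the 10 genes at least 2-fold lower went from 2 to 0 under normexp, where an offset of 50 is added to each intensity, and to 0 where bounds were dropped and a probe had to be measured on both arrays. Over all genes, normexp took those at least 2-fold higher from 1667 to 597 and those lower from 1538 to 497. With no filter on dim probes the log2 ratio was -2.85 for Cdkn1c and -1.70 for Igf2. Meg3 went from 0.19 to -0.05 under normexp. Grb10, Mest, Ndn and Plagl1 kept their sign in all 10 alternatives and stayed within 2-fold, with Mest reaching -0.03 with the mean over its probes. No paired analysis was possible because there is a single array for either condition and nothing was tested, and leaving out a replicate was not possible. Normexp was run on the median spot intensity. Signal over background limits these genes: 8 of 19 probes were well above background on neither array.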

Other observations

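The genes that set and keep imprints were mostly measured. Of 14 genes of imprint control, 12 had a ratio or bound, with a median of 0.06 on the log2 scale. Of these, 0 exceeded 2-fold upwards and 1 downwards, against 11.0% and 10.1% of all genes. Ctcf, which binds unmethylated control regions, had 293 and 633, just short of 2-fold, and exceeded it under median centring, where 1 gene was past 2-fold upwards. Dnmt3l, a cofactor of de novo methylation, had a log2 ratio of -0.96. Zfp445, a zinc finger protein that guards imprints, had 194 and 48.6, a log2 ratio of -2.11 on the single probe that named it. Uhrf1, which brings the maintenance methyltransferase to replicated DNA, had 3824 and 5231, a log2 ratio of 0.33. The de novo methyltransferase Dnmt3b had 1114 and 1704, a log2 ratio of 0.50. Among the enzymes that oxidise methylcytosine, Tet1 had 1497 and 976, a log2 ratio of -0.73, and Tet2 had 1043 and 1182, a log2 ratio of 0.06.

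Of 15 genes known for quiescent or long-term hematopoietic stem cells, all had a ratio or bound, with a median of 0.22. Past 2-fold were 3 upwards in diabetic mice and 1 downwards, against 11.0% and 10.1% of all genes. Under normexp the counts were 1 and 0, with Mllt3 at 0.98, Slamf1 at 0.31 and Mecom at -0.80. Hoxb5, a marker of long-term stem cells, had 11.6 and 128, a log2 ratio of 3.35. Mllt3, which sustains stem cell self-renewal, had 53.6 and 161, a log2 ratio of 1.47. Slamf1, which encodes CD150, had 5.29, not well above background, and 28.7, at least 2.59-fold higher. Mecom had 182 and 86.1, a log2 ratio of -1.20, on its brightest probe and -0.16 on the other. The brightest genes of this list lay closer to 0, with log2 ratios of -0.04 for Foxo3, 0.25 for Egr1, 0.32 for Hlf and 0.67 for Txnip.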
